A study of Mus musculus with 8 samples.

Results

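The genes examined here carry cargo to and from the apical surface of epithelial cells. They are 9 genes chosen by symbol for this role, with earlier results of these data known, namely Rab25, Rab11a, Rab17, Rab11fip1, Rab11fip5, Myo5b, Myo5c, Mal2 and Ap1m2. Of these, 8 were found among the 18671 genes of the deposited expression table, and Ap1m2 was not among its rows, so it has no value here. Expression was measured by RNA-seq in bipotential mouse embryonic liver (BMEL) cells, an immortalized line from embryonic liver that can differentiate into hepatocytes and cholangiocytes. In 4 samples the cells had been transfected with a plasmid for flag-tagged GRHL2 (labelled pGRHL2 or pIGrhl2, here GRHL2 samples), and in 4 control samples with the pcDNA3 vector. All 8 samples came from cells grown on collagen in medium with serum, IGFII, EGF and insulin, and RNA was taken 48 h after transfection. The GRHL2 plasmid drives the human cDNA from an EEF1A1 promoter and, unlike the vector as labelled, carries a second reading frame for EGFP.

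In polarized epithelia, endocytosed and newly made proteins pass through an apical recycling endosome before they reach the apical membrane. Small GTPases of the Rab11 subfamily mark this compartment, Rab11 family-interacting proteins (FIPs) are recruited by the active GTPases, and class V myosins move the vesicles along actin. Cholangiocytes face a single bile duct lumen, whereas hepatocytes form several small apical surfaces and send many apical proteins there by transcytosis from the basolateral side. GRHL2 is a transcription factor of epithelial cells, and in liver progenitor cells Rab25 and claudins have been described among the genes it controls. The comparison of the GRHL2 and control samples addresses which genes ectopic GRHL2 changes in such cells.

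Promoter windows are shown for 3 members, because Rab25 had the largest increase of the members, Rab11a is its ubiquitous relative and Myo5c was the member with lower values in the GRHL2 samples. Each run gives the 250 bases before the transcription start in RefSeq on GRCm38.p6, 5′ to 3′ on the strand of the gene, and capitals mark a match to the Grainyhead-type motif AACNGGTT read on either strand.
Rab25 (chr3:88548280-88548529, minus strand): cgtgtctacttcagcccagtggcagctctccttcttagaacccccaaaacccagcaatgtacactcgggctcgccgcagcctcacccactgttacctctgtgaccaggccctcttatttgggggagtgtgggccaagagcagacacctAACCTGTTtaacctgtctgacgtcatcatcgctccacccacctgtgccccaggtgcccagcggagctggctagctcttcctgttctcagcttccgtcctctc
Rab11a (chr9:64737757-64738006, minus strand): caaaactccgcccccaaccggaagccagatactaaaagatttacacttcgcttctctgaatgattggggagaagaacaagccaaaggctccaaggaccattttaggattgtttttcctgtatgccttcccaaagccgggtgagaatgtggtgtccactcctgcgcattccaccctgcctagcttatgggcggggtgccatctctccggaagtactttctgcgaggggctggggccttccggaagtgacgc
Myo5c (chr9:75231764-75232013, plus strand): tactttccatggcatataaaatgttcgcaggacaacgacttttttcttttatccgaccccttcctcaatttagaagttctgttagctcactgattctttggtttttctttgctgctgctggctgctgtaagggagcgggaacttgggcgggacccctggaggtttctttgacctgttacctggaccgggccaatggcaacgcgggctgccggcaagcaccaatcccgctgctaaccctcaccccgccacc

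The search covered 300 bases per promoter, from 250 before to 50 after the start, and 6 of the 9 members had an entry (Rab25, Rab11a, Rab11fip5, Rab17, Myo5c and Ap1m2). Rab25 held a match, AACCTGTT on its own strand, which is AACAGGTT on the other strand, at positions -102 to -95 from the start. The other 5 had no such letters in this window. AACNGGTT and its reverse complement AACCNGTT mark the same sites when both strands are read, and 686 of 32851 promoters of this length, or 2.09%, held a match. The palindrome AACCGGTT was present in 48 of them (0.146%) and in no member. Outside the members, Rab11fip2, whose change did not pass the test, held AACCGGTT at -246 to -239 in 1 of its 2 windows, while Cldn4, Mal and Mall, which all rose, held no match. A shorter run, AACCTGT, was chosen after the Rab25 window had been read. It occurred at 2 places in that window, separated by 2 bases. Of the 32851 promoters, 22 (0.067%), Rab25 among them, held it 2 or more times, and 1230 (3.74%) held it at least once. Since the run was taken from the Rab25 window, these shares are no test of it. Binding was not measured, and these matches are descriptions of the sequence.

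Values are given as the authors' log2 expression per transcript length, read here as a DESeq2 rlog value less the log2 of length. An rlog moderates differences of genes with few reads, which was not measured here, and the read depth of the samples is unknown. Of all 18671 genes tested with limma, 16.4% passed an adjusted p under 0.05, of which 1957 (10.5% of all) had risen with GRHL2 and 1104 (5.91%) had fallen. Setting the upper quartile of the samples equal gave 3064 higher and 972 lower genes, and setting their medians equal gave 1119 and 1256. Mouse Grhl2 had values of 4.68, 4.57, 4.42 and 4.44 in the control samples and 6.30, 6.96, 5.65 and 6.05 in the GRHL2 samples, although the share of its reads that came from the human cDNA of the plasmid is not known. Same-numbered samples were treated as pairs in an alternative model (replicate block), which is cited where it alters a call. Keratin 8, keratin 18 and keratin 19 and the hepatic factor Hnf4a were high in this line (mean Hnf4a 11.2), while the hepatocyte products Alb, Ttr and Apoa1 were lower (control means 5.25, 4.91 and 3.903) and the biliary factor Onecut1 stood at 1.80. Of 5 hepatoblast and hepatocyte markers none rose, and Afp fell by 0.21 (limma adjusted p = 0.0124). The 3 blood, 4 endothelial and 2 fibroblast markers in the table were at or below a mean of 6.17 and none was called, whereas with the replicate block 1, 2 and 1 of them were higher. Dlk1, Col1a2, Col3a1, Dcn, Adgre1 and Hbb-bs were not among the rows of the table. The summed level of 8 progenitor and biliary markers was 16.64 to 16.84 in the control and 16.87 to 16.99 in the GRHL2 samples, with 1 of the 8 called higher (5 with the replicate block), and its part in the results was not tested. In bulk RNA, a change in all cells and a larger change in the transfected cells alone cannot be told apart.

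Of the 8 members, 3 rose in the GRHL2 samples (Rab25, Rab11a and Mal2), none was called lower and 5 were not called by limma. Unadjusted p-values under 0.05 were reached by 6 members with higher and 1 with lower values, against 18.4% and 12.7% of all genes. With the replicate block, 6 members were called higher (Rab11fip1, Rab11fip5 and Myo5b in addition) and 1 lower (Myo5c). The background is 10.5% of all genes called higher, and 6.69% (with 8.38% lower) of the 10973 genes with a mean value of at least 5, a level that every measured member exceeded. With the block it is 18.2% higher and 13.9% lower. The median log2 fold change of the 8 members was 0.19, against 0.0066 over all genes. The increases were small apart from that of Rab25, as the plot of level and change shows.

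**Figure D1:**
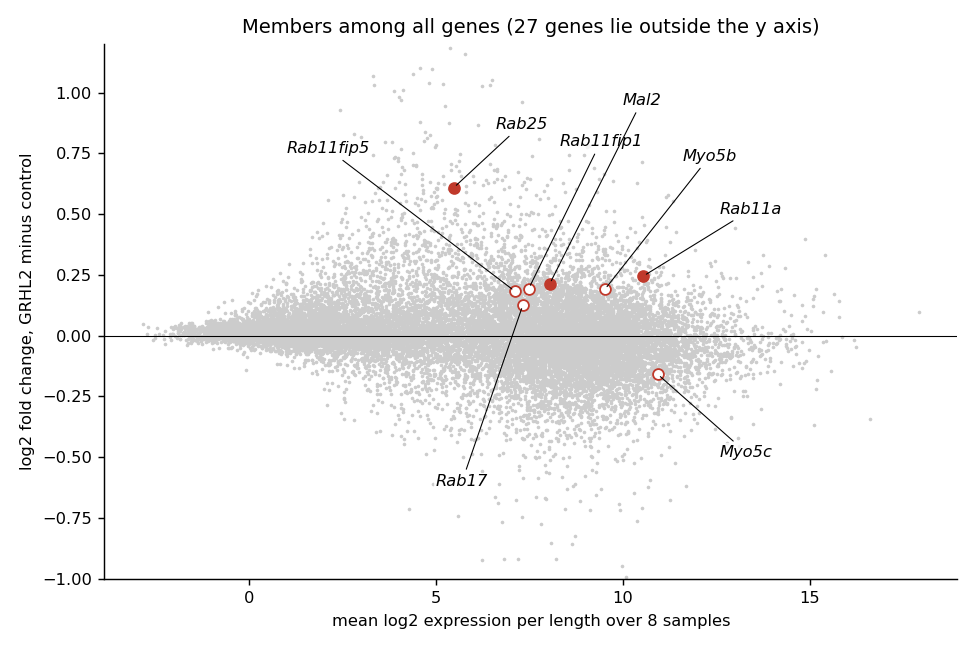
Log2 fold change (GRHL2 minus control) against the mean log2 expression per length over 8 samples, for all genes (grey) and the 8 measured members (red, filled where limma's adjusted p is under 0.05). Rab25 lies at 0.61 and the other members between -0.16 and 0.25, and 27 genes lie outside the y axis.

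Among the GTPases, Rab25 is the member of the Rab11 subfamily whose expression is largely limited to epithelia. Rab25 (ENSMUSG00000008601, GRCm38 chromosome 3, 88542029 to 88548300, minus strand) had log2 values of 5.21, 5.19, 5.09 and 5.21 in control replicates 1 to 4 and of 5.77, 5.91, 5.74 and 5.72 in GRHL2 replicates 1 to 4. All GRHL2 samples lay above all control samples, as for 14.3% of all genes. The gap between the groups was several times the spread within them. The mean was 5.18 ± 0.056 (SD, n = 4) in the control and 5.78 ± 0.085 (SD, n = 4) in the GRHL2 samples. Rab25 rose by 0.61 on the log2 scale (standard error 0.050, 95% interval 0.50 to 0.72, limma adjusted p = 0.000120), or 1.52-fold on this scale. Only 0.664% of all genes had a larger increase. GRHL2 replicate 2, which had the highest Rab25 value, also had the highest Grhl2 value. Among the GRHL2 samples, however, Rab25 was lowest in replicate 4 (5.72) and Grhl2 in replicate 3 (5.65). A relation between their levels was not tested. Within same-numbered pairs the difference in Rab25 was 0.56, 0.72, 0.65 and 0.51.

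Rab11a is the widely expressed member of the subfamily and is needed for opening an apical lumen in many epithelia. Rab11a (ENSMUSG00000004771, chromosome 9, 64715299 to 64737758, minus strand) had log2 values of 10.40, 10.27, 10.51 and 10.52 in control replicates 1 to 4. In the GRHL2 replicates the values were 10.66, 10.61, 10.65 and 10.76, each above the highest control sample, as for 14.3% of all genes. It rose by a log2 fold change of 0.25 (standard error 0.064, 95% interval 0.10 to 0.39, adjusted p = 0.0276, limma). The call is close to the threshold: its adjusted p was 0.0764 without control replicate 1, and 0.0609, 0.0537 and 0.0730 without GRHL2 replicates 1, 3 and 4. Exons of Rab11a share 107 of 2992 bases with a predicted miRNA gene on the same strand.

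Rab17 is a GTPase of epithelial cells that acts in transcytosis and apical recycling. Rab17 (ENSMUSG00000026304, chromosome 1, 90958133 to 90969661, minus strand) had log2 values of 7.10, 7.12, 7.46 and 7.38 in the control samples and of 7.35, 7.28, 7.47 and 7.46 in the GRHL2 samples. Replicates 3 and 4 were higher than replicates 1 and 2 in both groups, and the groups overlapped. The log2 fold change of 0.13 (standard error 0.088, 95% interval -0.07 to 0.32) did not pass the test, either without the replicate block (adjusted p = 0.371, limma) or with it (adjusted p = 0.0749). Replicates 1 and 2 differed by 0.21 between the groups, and replicates 3 and 4 by 0.043. Its log2 fold change was 0.069, 0.077 and 0.19 without control replicate 1, 2 or 3, and was not called in any of these.

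**Figure D2:**
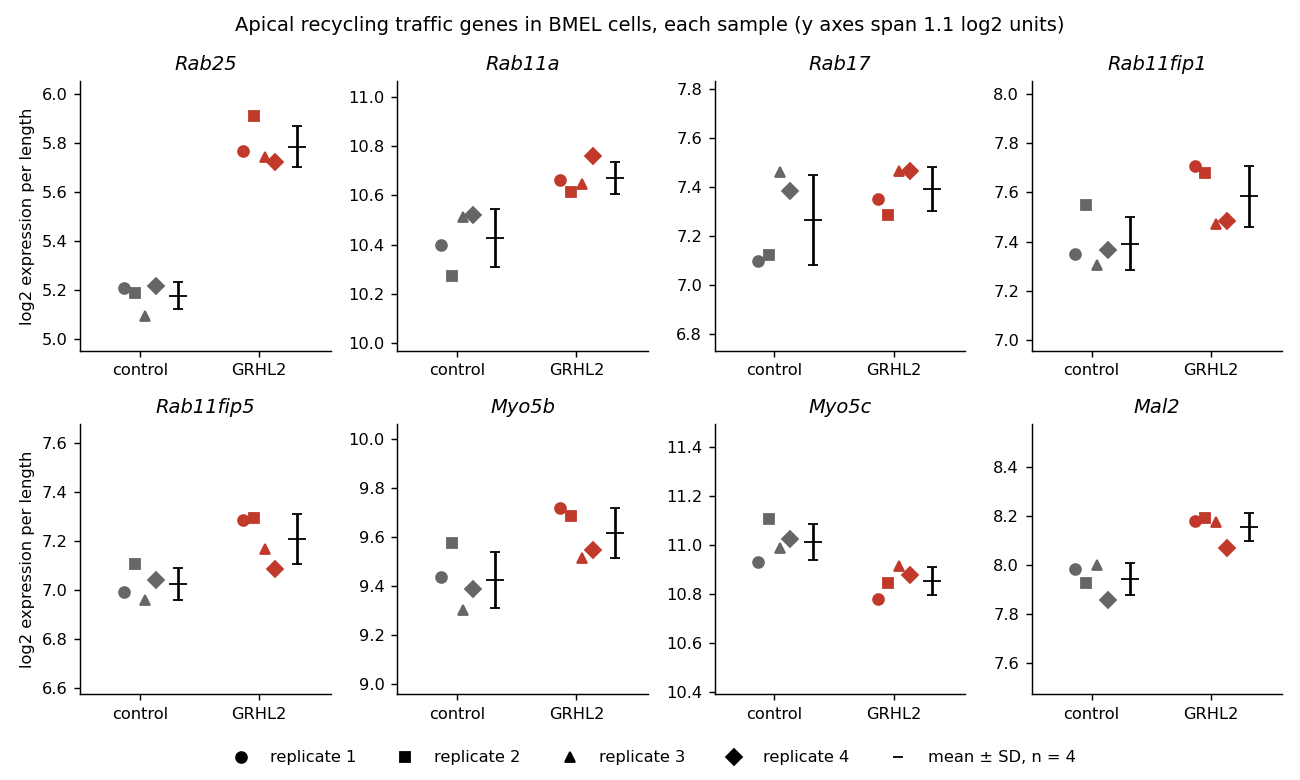
Log2 expression per length of the 8 measured members in each control (grey) and GRHL2 (red) sample, with the replicate number as the symbol and the mean ± SD (n = 4) in black. The groups do not overlap for Rab25, Rab11a, Mal2 and Myo5c, of which Myo5c is lower in the GRHL2 samples. Of all genes, 14.3% are apart in the higher and 9.47% in the lower direction.

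The FIPs measured as members were Rab11fip1, also called RCP, and Rab11fip5, also called Rip11. Both are class I FIPs, which bind membranes as well as Rab11 and Rab25. Rab11fip1 (ENSMUSG00000031488, chromosome 8, 27138773 to 27174646, minus strand) had log2 values of 7.35, 7.55, 7.30 and 7.36 in the control and 7.71, 7.68, 7.47 and 7.48 in the GRHL2 samples. Control replicate 2 lay above GRHL2 replicates 3 and 4, so the groups overlapped, although each GRHL2 sample exceeded the control sample of its number. The log2 fold change was 0.19 (standard error 0.074), with an adjusted p of 0.104 in limma, of 0.0147 with the replicate block and of 0.0493 without control replicate 2. The counting disregarded strand, and 452 of its 10800 exonic bases overlap an antisense gene.

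Rab11fip5 (ENSMUSG00000051343, chromosome 6, 85334962 to 85374634, minus strand) had log2 values of 6.99, 7.10, 6.96 and 7.04 in the control samples. The GRHL2 samples had 7.29, 7.29, 7.16 and 7.08, of which replicate 4 fell below control replicate 2. Its log2 fold change was 0.18 (standard error 0.059), and its adjusted p was 0.0617 in limma, 0.0176 with the replicate block and 0.0336 without GRHL2 replicate 4. With an equal upper quartile the adjusted p was 0.0316.

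The motors are class V myosins. Myosin Vb binds Rab11a and carries recycling vesicles to the apical membrane, and its loss in intestine causes microvillus inclusion disease. Myo5b (ENSMUSG00000025885, chromosome 18, 74440936 to 74771493, plus strand) had log2 values of 9.44, 9.57, 9.30 and 9.39 in the control and of 9.72, 9.69, 9.51 and 9.54 in the GRHL2 samples. Control replicate 2 exceeded GRHL2 replicates 3 and 4, whereas all 4 same-numbered differences were positive, from 0.11 to 0.28. Its change was 0.19 on the log2 scale (standard error 0.071), with an adjusted p of 0.0966 in limma (0.00663 with the replicate block and 0.0427 without control replicate 2).

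Myosin Vc is found mainly in glandular and other secretory epithelia, where it associates with secretory granules. Myo5c (ENSMUSG00000033590, chromosome 9, 75232020 to 75305451, plus strand) had log2 values of 10.93, 11.11, 10.99 and 11.03 in the control samples and of 10.78, 10.84, 10.91 and 10.88 in the GRHL2 samples. It was the member with lower values in the GRHL2 samples, and the groups did not overlap, as for 9.47% of all genes in this direction. The log2 fold change was -0.16 (standard error 0.051, 95% interval -0.27 to -0.04). Its adjusted p was 0.0620 in limma, 0.0123 with the replicate block and 0.0389 with equal sample medians.

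Mal2 is a membrane protein of lipid-rich domains that takes part in transcytosis to the apical surface, and it was described in hepatic cells. Mal2 (ENSMUSG00000024479, chromosome 15, 54571192 to 54602847, plus strand) had log2 values of 7.98, 7.92, 7.999 and 7.86 in the control and of 8.18, 8.19, 8.17 and 8.07 in the GRHL2 samples. Every GRHL2 sample lay above every control sample, as for 14.3% of all genes in this direction. It rose by a log2 fold change of 0.21 (standard error 0.050, 95% interval 0.10 to 0.33, adjusted p = 0.0185, limma). Its adjusted p was 0.0598 with equal sample medians and 0.0523 without GRHL2 replicate 1. Without that sample, Rab25 was the only member called.

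The levels of the members, compared per transcript length, ran from 11.01 for Myo5c in the control samples down to 5.18 for Rab25. The order was Myo5c, Rab11a, Myo5b, Mal2, Rab11fip1, Rab17, Rab11fip5 and Rab25. In this order the control values of Rab11fip1 and Rab17 overlapped, as did those of Rab17 and Rab11fip5, and the other neighbours did not. Rab25 remained the lowest member in the GRHL2 samples, at 5.78 against 7.21 for Rab11fip5. Of all genes, 94.2% had a lower control mean than Myo5c, and 42.5% had a lower one than Rab25.

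Relatives within the family were then compared in each sample, so that the scaling of a sample drops out. Of 5 planned pairs, 4 could be compared, since Ap1m2 against Ap1m1 lacked Ap1m2. Rab25 minus Rab11a was -5.25 ± 0.14 (SD, n = 4) in the control and -4.89 ± 0.14 (SD, n = 4) in the GRHL2 samples. Rab25 thus rose more than Rab11a, by 0.36 (p = 0.0286 in a two-sided exact permutation test, the smallest that 4 against 4 allow, and 0.0381 adjusted over the 4 pairs). When the samples are kept in pairs, an exact sign-flip permutation cannot go below p = 0.125, the value reached by this pair and by both myosin pairs. Myo5c minus Myo5b fell from 1.59 ± 0.090 (SD, n = 4) to 1.24 ± 0.16 (SD, n = 4), with the same exact permutation p of 0.0286. This difference did not overlap between the groups, although neither motor passed the limma test on its own.

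Myosin Va, a motor known from neurons and pigment cells, went the other way from Myo5b. Myo5a had log2 values of 10.15, 10.37, 10.00 and 10.00 in the control and 9.96, 10.04, 9.71 and 9.71 in the GRHL2 samples. Myo5b minus Myo5a changed from -0.70 ± 0.075 (SD, n = 4) to -0.24 ± 0.079 (SD, n = 4), by 0.46 (exact permutation p = 0.0286, adjusted 0.0381). Myo5a alone had a log2 fold change of -0.27, with an adjusted p of 0.0973 in limma and of 0.000862 with the replicate block. Rab11fip1 minus Rab11fip5 was 0.37 ± 0.052 (SD, n = 4) in the control and 0.38 ± 0.049 (SD, n = 4) in the GRHL2 samples, a change of 0.011 that did not exceed the spread (exact permutation p = 0.714). With each sample left out in turn, that change stayed between -0.0037 and 0.036.

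**Figure D3:**
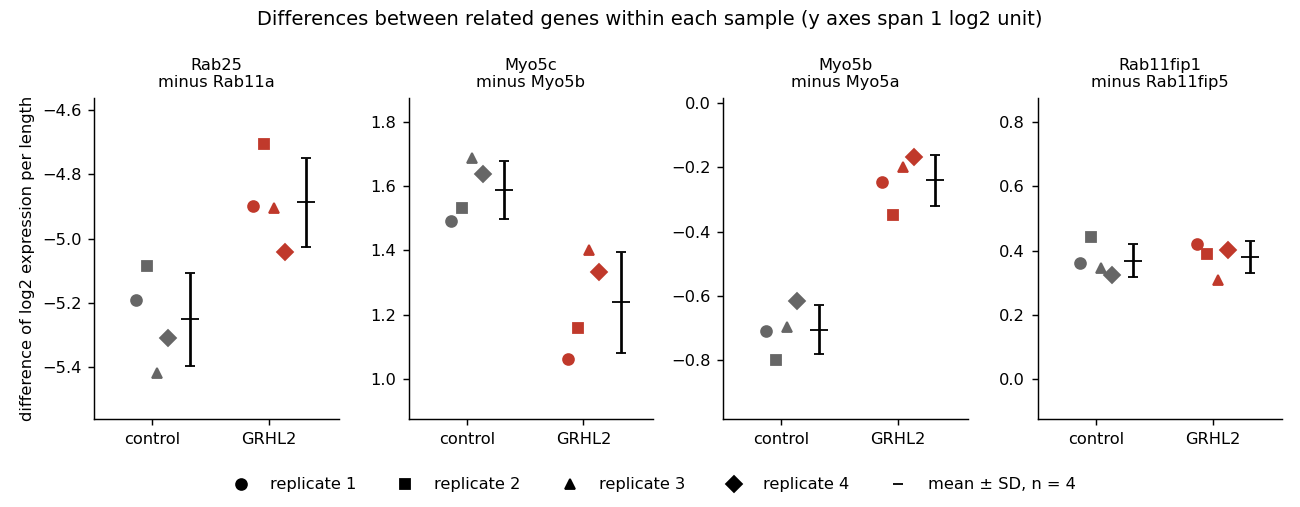
Difference of the log2 expression per length between 2 related genes within each control (grey) and GRHL2 (red) sample, with the mean ± SD (n = 4) in black. The groups are apart for Rab25 minus Rab11a, Myo5c minus Myo5b and Myo5b minus Myo5a, and overlap for Rab11fip1 minus Rab11fip5.

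Other close relatives of the members were read from the same fit. Rab11b, a Rab11 form abundant in brain, had a log2 fold change of 0.09 (95% interval -0.03 to 0.22, adjusted p = 0.306, limma). Rab11fip4, a class II FIP that binds Rab11 and Arf GTPases, had control values of 5.66, 5.74, 5.92 and 5.87. Its GRHL2 values were 5.95, 6.19, 6.19 and 6.18, all above the control samples, as for 14.3% of all genes. Rab11fip4 rose by 0.33 (standard error 0.074, adjusted p = 0.0146, limma). Rab11fip2 and Rab11fip3 had log2 fold changes of 0.10 and 0.11 and did not pass the test (adjusted p = 0.257 and 0.133, limma). Their values with the replicate block were 0.0931 and 0.0547.

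Mal had the largest log2 fold change of the 8 relatives. Mal, a raft protein of apical transport, had log2 values of 9.29, 9.29, 9.04 and 9.03 in the control and 9.92, 10.14, 9.67 and 9.58 in the GRHL2 samples. The groups did not overlap, as for 14.3% of all genes in this direction. Replicates 1 and 2 were higher than replicates 3 and 4 in both groups. Mal rose by 0.66 (standard error 0.12, 95% interval 0.40 to 0.93, adjusted p = 0.00550, limma). Mall rose by 0.32 (standard error 0.073, adjusted p = 0.0155), from 7.56 ± 0.15 to 7.88 ± 0.060 (SD, n = 4). Ap1m1, the ubiquitous relative of the epithelial AP-1 subunit encoded by Ap1m2, had a log2 fold change of -0.07 (95% interval -0.21 to 0.08, adjusted p = 0.524, limma).

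**Figure D4:**
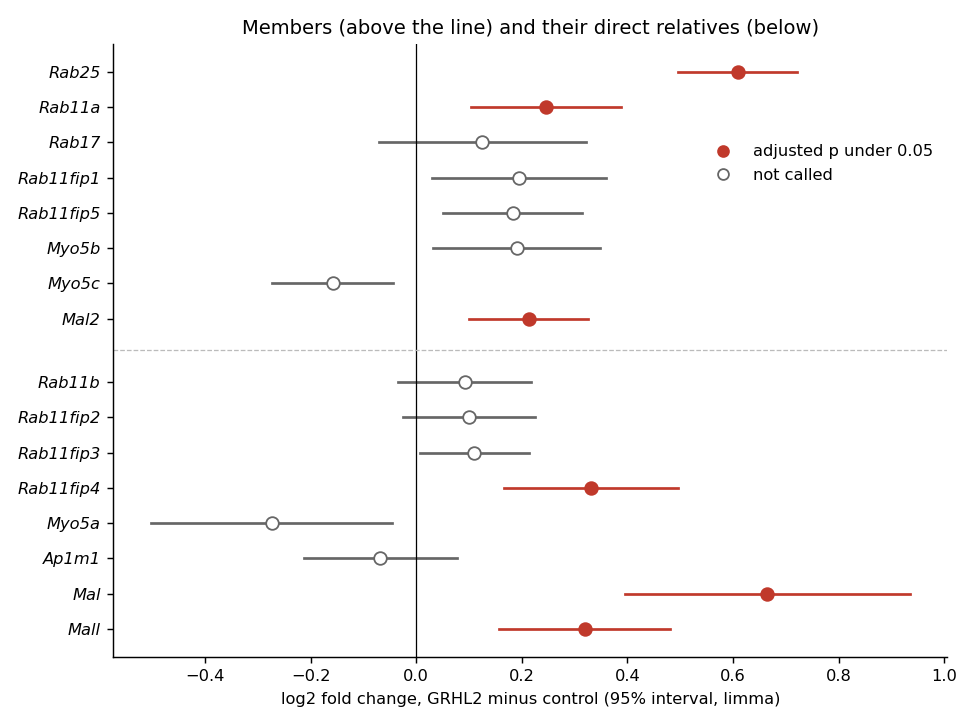
Log2 fold change (GRHL2 minus control) with its 95% interval from limma for the 8 measured members (above the dashed line) and 8 direct relatives (below), filled where the adjusted p is under 0.05. Rab25 (0.61) and Mal (0.66) have the largest increases, and Myo5c (-0.16), Myo5a (-0.27) and Ap1m1 (-0.07) lie below 0.

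Across the wider trafficking machinery, 100 of 103 listed genes were in the table. Of these, limma called 8 higher and 6 lower, or 8% and 6%, against 10.5% and 5.91% of all genes. Among all genes with a mean of at least 5, a level that most listed genes reach, the shares were 6.69% and 8.38%. The median log2 fold change of the listed genes was 0.0012. With the replicate block, 18 of them were higher and 21 lower, against 18.2% and 13.9% of all genes.

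In the Rab11 recycling machinery, 2 of 20 genes rose, or 10%, against 10.5% of all genes. None was called lower and 18 were not called by limma. At an unadjusted p under 0.05, 6 genes were higher and 1 lower, against 18.4% and 12.7% of all genes. With the block 4 were higher and 2 lower, against 18.2% and 13.9%. The 2 genes called by limma were Rab11fip4 and Dennd1c, and Dennd1c encodes a DENN domain protein of a family that activates Rab35. Dennd1c rose from 5.09 ± 0.10 to 5.47 ± 0.067 (SD, n = 4), by 0.38 on the log2 scale (limma adjusted p = 0.00193). In the list of the MAL family and apical lipid carriers, Mal and Mall were the 2 of 13 genes called higher. That is 15.4%, against 10.5% of all genes. None was called lower (1 at an unadjusted p under 0.05). With the block 5 were higher and 2 lower, against 18.2% and 13.9% of all genes.

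Among the SNAREs and synaptotagmin-like proteins, 2 of 11 genes rose and 1 fell, against 10.5% and 5.91% of all genes. Of all genes with a mean of at least 5, 6.69% rose and 8.38% fell. With the block 3 of the 11 were higher and 4 lower, against 18.2% and 13.9% of all genes. Vamp8, a vesicle SNARE of endosomes and of apical secretion, rose from 9.53 ± 0.17 to 9.89 ± 0.040 (SD, n = 4), by 0.36 (adjusted p = 0.0138, limma). Stxbp2, the Munc18-2 partner of syntaxin 3, rose by 0.19 with an adjusted p of 0.0454, which ranged from 0.00157 to 0.117 over the alternatives. Sytl2, a Rab27 effector, fell from 10.19 ± 0.031 to 10.02 ± 0.050 (SD, n = 4), a change of -0.17 on the log2 scale (limma adjusted p = 0.0248). It lost its call with an equal sum (adjusted p = 0.0578) and without control replicate 3 (0.0617), GRHL2 replicate 1 (0.0715) or GRHL2 replicate 2 (0.0572).

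In the list of other secretory and epithelial Rabs, Rab15 was the 1 of 11 genes called higher, or 9.09%, against 10.5% of all genes. Its log2 fold change was 0.10 (adjusted p = 0.00289, limma) at a low level of 1.998 ± 0.0022 (SD, n = 4) in the control samples. In the GRHL2 samples it was 2.10 ± 0.010 (SD, n = 4), so the adjusted p goes with a very small spread. With equal sample medians its adjusted p was 0.0714, and no gene of the list was called. With the block 4 were higher, against 18.2% of all genes, and 5 were at an unadjusted p under 0.05, against 18.4%. No gene of that list was lower in limma, at an unadjusted p under 0.05 or with the block. Among 10 genes of the AP-1 adaptor and clathrin, Ap1s3, a small subunit of AP-1, rose from 6.48 ± 0.13 to 6.83 ± 0.11 (SD, n = 4), by 0.35 (adjusted p = 0.0114, limma). Ap1s3 was the 1 of these 10 called higher, or 10%, against 10.5% of all genes. None of the 10 was called lower. 1 was lower at an unadjusted p under 0.05 and 2 with the block, against 12.7% and 13.9% of all genes. Of 7 AP-3 and AP-4 subunits, Ap3d1, the delta subunit of AP-3, fell by 0.21 (adjusted p = 0.0143) and none was called higher, with 0 higher at an unadjusted p under 0.05. The 1 called lower is 14.3% of this list, against 5.91% of all genes. With the block 2 were lower and 0 higher, against 13.9% and 18.2% of all genes.

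The exocyst tethers vesicles at the plasma membrane. None of its 9 genes passed the limma test, and their median log2 fold change was -0.13. The nearest was Exoc3 (adjusted p = 0.0503), and 1 gene was lower with equal medians, without the trend, under either filter on low values and with array weights. At an unadjusted p under 0.05, 3 of the 9 were lower, against 12.7% of all genes, and none higher. With the block 4 were lower and 1 higher, against 13.9% and 18.2% of all genes. The early endosome list had 4 of 19 genes called lower and none higher, with 21.1% lower against 5.91% of all genes and 8.38% of those with a mean of at least 5. With the block 5 were lower, against 13.9% of all genes. Of the 4 called without it, 2 had a log2 fold change of at least 0.2 in size. At an unadjusted p under 0.05, 1 of the 19 was higher, and with the block none was. The retromer subunits Vps26a and Vps35 sort cargo out of endosomes, and Vps26a fell by 0.28 (adjusted p = 0.00555) and Vps35 by 0.21 (adjusted p = 0.00638, limma). Vps29, the third core subunit, differed by -0.02 on the log2 scale and was not called (limma adjusted p = 0.899). The Rab5 effectors Rabep1 and Eea1 each fell by 0.20, with adjusted p-values of 0.0111 and 0.0120.

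**Figure D5:**
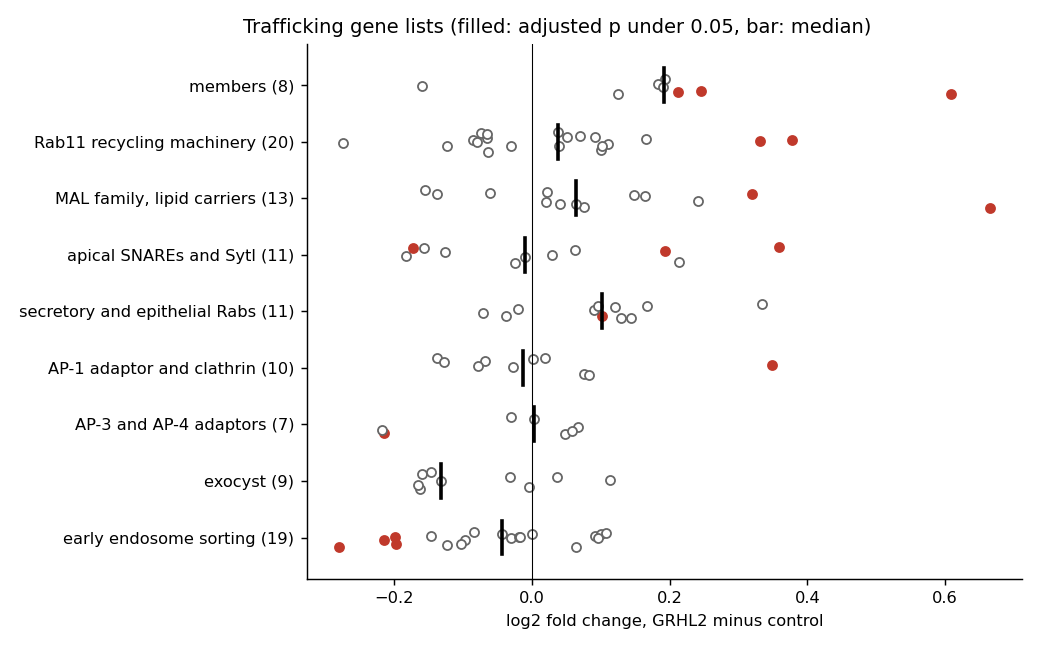
Log2 fold change (GRHL2 minus control) of each gene in the members and in 8 further trafficking lists, with the number of genes in brackets, filled points where limma's adjusted p is under 0.05, and a bar at each median. The median of the members lies at 0.19, and those of the other lists between -0.13 and 0.10.

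Among the 17766 other genes with a mean value of at least 0, the profiles most like that of Rab25 were sought by the root-mean-square difference of gene-centred log2 values over the 8 samples. The nearest were Prkd1 (0.022), Whrn (0.040), Vsig10l (0.047), Adgrb1 (0.049) and Nr5a1 (0.051). These encode protein kinase D1, the scaffold whirlin, an immunoglobulin-domain protein, an adhesion receptor and a nuclear receptor. All 5 rose with log2 fold changes from 0.57 to 0.66, at control levels of 3.16 to 4.22, below that of Rab25. In each of them GRHL2 replicate 2 was the highest sample, as it was for Rab25. Both the size of the rise and this order follow from how these genes were selected. Cldn4, a claudin described with Rab25 as dependent on GRHL2, rose by 1.71 (adjusted p = 3.24e-06, limma), from 5.87 ± 0.10 to 7.59 ± 0.12 (SD, n = 4).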

How the data were processed

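RNA-seq was analysed for 8 BMEL samples (4 GRHL2, 4 control), grouped by their labels. The submitters' processing notes name HISAT2 2.2.1, HTSeq 0.9.1 and DESeq2 1.40.2 with mm10 and GRCm39. According to the methods, the authors counted reads on exons without regard to strand, removed genes with few reads and scaled DESeq2 rlog values by mean transcript length. That text opens with public data and was assumed to cover these samples. The deposited values were read as log2, since 4.81% of them are below 0, whereas the table's name speaks of FPKM. A log2 of FPKM cannot be told apart from rlog values by this. A figure legend of the study calls them independent biological replicates.

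All 18671 genes were tested with limma 3.58.1 in R 4.3.3 (2 groups, mean-variance trend, Benjamini-Hochberg, adjusted p under 0.05) and single genes also by an exact permutation test. Replicate numbers were taken as pairs, since same-numbered samples correlated in their deviations from the group means (Pearson's r 0.474 to 0.645 across genes). The test was checked on simulated data. Positions are from GENCODE M21 (GRCm38), and promoters from RefSeq (GRCm38.p6). Members and lists were chosen with earlier results of these data known. Named genes were the members, their direct relatives, Grhl2 and Cldn4, up to 3 called genes per list and direction, and the 5 profiles nearest to Rab25. Eea1, Vps29, Exoc3 and the single cell type markers were added after their values had been seen. Cldn3, Stx4, Vamp7 and Rab19 were not among the rows of the table. Alternatives were 3 scalings, the replicate block, no trend, 2 filters on low values, a minimum log2 fold change of 0.2, array weights, replicates 1 and 2 or 3 and 4 alone, and each sample left out.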

Additional observations from a re-analysis of the deposited data

Results flagged for a closer look

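In 64 groups of 4 samples (the 8 members, 20 other named genes and 4 differences between relatives, each in control and GRHL2 samples), 3 had a sample far from the others by Dixon's 95% critical value, where chance gives about 1 in 20 groups, or 3.2. Mal2 in GRHL2 replicate 4 was the lowest of the GRHL2 samples, at 8.07 against 8.17 for the nearest. Rab11fip4 in GRHL2 replicate 1 was the lowest, at 5.95 against 6.18. Ap3d1 in GRHL2 replicate 2 was the highest, at 10.97 against 10.91. Without these samples the log2 fold changes were 0.24 for Mal2, 0.39 for Rab11fip4 and -0.23 for Ap3d1, with the same direction and side of the threshold in limma.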

How the results depend on the processing

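Rab25 kept its direction under all 18 alternatives, with log2 fold changes of 0.57 to 0.64. It kept its call in the 16 that gave a test, with adjusted p-values of 3.85e-05 to 0.000874 in limma. Among the named genes and differences followed under the alternatives, none changed direction except the near-zero change of Rab11fip1 minus Rab11fip5, which was not called. Eea1, Vps29, Exoc3, the cell type markers, the profiles nearest to Rab25 and the list medians were not followed in this way. The median over all genes, 0.0066, became -0.024 with equal medians. The replicate block brought Rab11fip1 (0.19), Rab11fip5 (0.18), Myo5b (0.19) and Myo5c (-0.16) past the threshold, so that 6 members were higher and 1 lower, and it gave 18 higher and 21 lower genes of the wider lists and 3396 higher and 2589 lower of all genes. The block also called Myo5a, and it changed no other call of a member or direct relative. It kept 3048 of the 3061 calls. For the differences between relatives, exact sign-flip permutations within pairs give at smallest p = 0.125, which Rab25 minus Rab11a (0.36), Myo5c minus Myo5b (-0.35) and Myo5b minus Myo5a (0.46) reached. Array weights called Rab11fip1 (0.21), Rab11fip5 (0.18) and Myo5b (0.21), 6 members higher and 10 wider genes lower. An equal upper quartile called Rab11fip5 (0.21), 13 wider genes and 3064 of all genes higher, and an equal sum called Rab11fip5 (0.21). Equal medians lost Mal2 (0.18), called Myo5c (-0.19) as 1 lower member, and left 1119 of all genes higher. Without the trend Myo5c (-0.16) was 1 lower member. Among the 10973 genes with a mean of at least 5, tested alone, 715 were higher, and over all genes a minimum log2 fold change of 0.2 left 1075 higher, and 3 wider genes lower.

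With each sample left out, the log2 fold change was 0.19 to 0.28 for Rab11a, 0.15 to 0.25 for Rab11fip1, 0.15 to 0.22 for Rab11fip5, 0.15 to 0.24 for Myo5b, -0.19 to -0.13 for Myo5c, 0.069 to 0.19 for Rab17 and 0.18 to 0.24 for Mal2. Among the relatives not called, the log2 fold change was 0.054 to 0.12 for Rab11b and 0.054 to 0.13 for Rab11fip2. It was 0.084 to 0.13 for Rab11fip3, -0.33 to -0.19 for Myo5a and -0.12 to -0.027 for Ap1m1. The members called higher numbered 1 to 5, and 690 to 1036 of all genes were lower. Calls lost there also reflect fewer samples, and the cause of the other shifts was not tested. As the depth is unknown, the precision of values near the lower end of the table, such as those of Rab15, could not be judged.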
